A study of Homo sapiens with 6 samples.

Results

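The 48 genes described here encode proteins of the G2 phase of the cell cycle and of mitosis. They were listed by name, and each was read from the probe set with the highest mean signal over all 6 arrays among the probe sets that the platform annotation ties to that gene alone. All 48 had such a probe set, of 19775 genes that did, and all 48 had a mean of at least 5 log2 units and so were among the 13506 genes tested. The arrays were Affymetrix U133 Plus 2.0 chips hybridised with RNA from A375, a human melanoma cell line with an activated BRAF kinase. Both lines compared carry a CRISPR knockout of eIF4B, a protein that helps the helicase eIF4A unwind mRNA for translation. KO/LacZ cells were then transduced by lentivirus with LacZ (the knockout line) and KO/eIF4B cells with wild-type eIF4B (the rescued line). Each line received 10 µM vemurafenib, an inhibitor of mutant BRAF, for 6 h or 18 h, or the DMSO vehicle, and each of these 6 combinations has 1 array. How long vehicle was applied, whether a line is 1 clone and whether each array had a culture of its own are not stated in the labels. The p-values therefore describe only how these 6 arrays vary, which may be technical.

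Entry into mitosis is driven by cyclin A and cyclin B with the kinase CDK1, which CDC25 phosphatases switch on. Aurora and Polo-like kinases then build the spindle, kinetochores tie chromosomes to it, and the spindle checkpoint holds back the anaphase-promoting complex (APC/C), a ubiquitin ligase, until all are attached. APC/C then destroys securin and cyclin B, separase cuts cohesin, and kinesins and cytokinesis proteins complete division. Most of these genes are transcribed in G2 by FOXM1 and B-MYB with the MuvB complex, and in resting cells the DREAM complex, which also contains MuvB, represses them. Lower mRNA of such genes in a whole culture can come from fewer cells in G2 and M or from less mRNA in each cell, which these arrays cannot tell apart.

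MuvB complexes are known to bind promoters through the cell cycle genes homology region, read here as TTTGAA or TTTAAA, and NF-Y through the CCAAT box. Both strands were searched (TTTAAA reads the same on both) in RefSeq windows of GRCh38.p14 that run from 250 bases before to 50 bases after a gene's start. Of the 48 genes, 40 had 1 or more windows, 52 in all. TTTGAA or TTTAAA was found in 40 of these 52 windows (76.9%), against 8424 of all 35116 windows (24%), and CCAAT in 39 (75%), against 12155 (34.6%). Among 37 genes of DNA replication and S phase with a window, 5 of 47 windows (10.6%) held TTTGAA or TTTAAA and 28 (59.6%) held CCAAT. In windows of the 48 genes the 63 matches to TTTGAA or TTTAAA began at a median of 34 bases before the start. The 81 matches to CCAAT began at a median of 86 bases before it. Among the matches 4 pairs overlapped, 2 of them between the motifs and 2 between CCAAT matches on opposite strands. Both CCAAT pairs are the same PTTG1 site, seen in 2 windows. Windows of a gene can overlap, so some matches are counted more than once. AURKA, BIRC5, BUB3, CENPM, FOXM1, TPX2, TTK and UBE2C had no window in the table.

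The windows below belong to the 3 genes with the most negative and the 3 with the most positive change at 18 h among those with a TTTGAA or TTTAAA match, and are shown so that the letters can be compared between genes that moved in opposite directions. Each is written 5′ to 3′ along the gene's own strand, with matches to these motifs on either strand in capitals. For CDC25C, which has 4 windows, the one whose match lies nearest the start was taken.
HJURP (chr2:233854486-233854785, minus strand): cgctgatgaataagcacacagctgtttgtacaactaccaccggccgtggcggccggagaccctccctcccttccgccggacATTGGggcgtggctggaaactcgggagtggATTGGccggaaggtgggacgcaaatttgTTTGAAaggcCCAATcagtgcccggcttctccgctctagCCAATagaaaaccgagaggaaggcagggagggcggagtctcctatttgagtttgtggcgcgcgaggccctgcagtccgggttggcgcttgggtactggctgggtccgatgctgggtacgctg
SPC25 (chr2:168890381-168890680, minus strand): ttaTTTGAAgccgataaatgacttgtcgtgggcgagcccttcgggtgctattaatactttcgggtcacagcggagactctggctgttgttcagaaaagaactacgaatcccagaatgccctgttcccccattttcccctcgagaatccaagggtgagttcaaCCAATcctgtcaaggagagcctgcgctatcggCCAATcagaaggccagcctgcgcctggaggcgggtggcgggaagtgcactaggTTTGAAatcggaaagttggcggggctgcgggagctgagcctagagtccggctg
MAD2L1 (chr4:120066799-120067098, minus strand): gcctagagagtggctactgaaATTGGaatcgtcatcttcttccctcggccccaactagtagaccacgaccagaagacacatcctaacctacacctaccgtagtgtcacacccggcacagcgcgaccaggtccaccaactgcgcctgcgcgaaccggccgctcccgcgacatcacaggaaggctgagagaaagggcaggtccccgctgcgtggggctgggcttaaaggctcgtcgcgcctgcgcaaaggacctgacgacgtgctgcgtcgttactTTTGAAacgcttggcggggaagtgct
NDC80 (chr18:2571307-2571606, plus strand): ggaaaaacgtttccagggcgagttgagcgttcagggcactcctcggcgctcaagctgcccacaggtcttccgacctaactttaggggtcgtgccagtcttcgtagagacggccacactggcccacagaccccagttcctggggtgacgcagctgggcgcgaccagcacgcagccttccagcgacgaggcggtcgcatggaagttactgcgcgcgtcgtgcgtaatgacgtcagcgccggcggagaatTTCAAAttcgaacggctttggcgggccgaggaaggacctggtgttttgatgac
CDC25C (chr5:138331755-138332054, minus strand): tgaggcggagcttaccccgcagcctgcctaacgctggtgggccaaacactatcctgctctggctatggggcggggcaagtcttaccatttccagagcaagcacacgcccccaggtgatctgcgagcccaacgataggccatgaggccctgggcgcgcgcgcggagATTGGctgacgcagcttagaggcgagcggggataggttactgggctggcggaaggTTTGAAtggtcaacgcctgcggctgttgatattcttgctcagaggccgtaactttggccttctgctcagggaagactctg
KIF20A (chr5:138178862-138179161, plus strand): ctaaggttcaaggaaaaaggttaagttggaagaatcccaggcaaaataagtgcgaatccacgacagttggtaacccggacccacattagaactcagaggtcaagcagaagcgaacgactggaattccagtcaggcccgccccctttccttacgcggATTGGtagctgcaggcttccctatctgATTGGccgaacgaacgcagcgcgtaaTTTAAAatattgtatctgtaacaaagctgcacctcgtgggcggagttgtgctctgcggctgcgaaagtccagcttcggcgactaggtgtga
All but NDC80, whose window held no CCAAT, had both kinds of match. The nearer of the 2 TTTGAA matches of SPC25 began 3 bases before the start, and the TTTAAA of KIF20A 41 bases before it. The TTTGAA of MAD2L1 lies after the start. Sorting the genes by their call at 18 h, TTTGAA or TTTAAA was found in 15 of 17 genes that fell, 5 of 5 that rose and 16 of 18 that did neither. Counted by window and not by gene, it was found in 16 of 21, 6 of 11 and 18 of 20, against 24% of all windows. The letters were thus common in each of the 3 groups, where 27.9% of all genes with a window had them, and no test was made of the shares.

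At 18 h of vemurafenib the mitotic genes divided into a larger group that fell and a small group that rose. Against vehicle, 22 of the 48 fell and 5 rose, while 21 passed in neither direction (limma with terms for line and for treatment, p-values adjusted over all genes by Benjamini-Hochberg, threshold 0.05). Among all genes tested 51.4% passed, 23.3% falling and 28.1% rising, so the share of the 48 that fell (45.8%) lay above that background and the share that rose (10.4%) below it. The median change of the 48 was -0.22 on the log2 scale, against 0.009 for all genes, and the changes ran from -0.88 to 0.34. The 5th percentile was alike, at -0.79 for the 48 and -0.79 for all genes. Standard errors lay between 0.058 and 0.12 and rest on how far the 2 lines disagree, moderated over all genes. Both 18 h arrays lay below both vehicle arrays in 28 of the 48 and above them in 7, where 34.0% and 37.0% of all genes did so. With any 1 array left out, every called gene kept the direction of its change. Most such fits called fewer of the 48, and each called fewer of all genes. A fit of this kind leaves 1 residual degree of freedom. Centring each array on the median of the 13506 genes tested, here and below, lowered every 18 h change by 0.10. This gave 28 lower and 1 higher, against 22 and 5, and moved all genes to 30.7% lower and 22.1% higher.

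**Figure D1:**
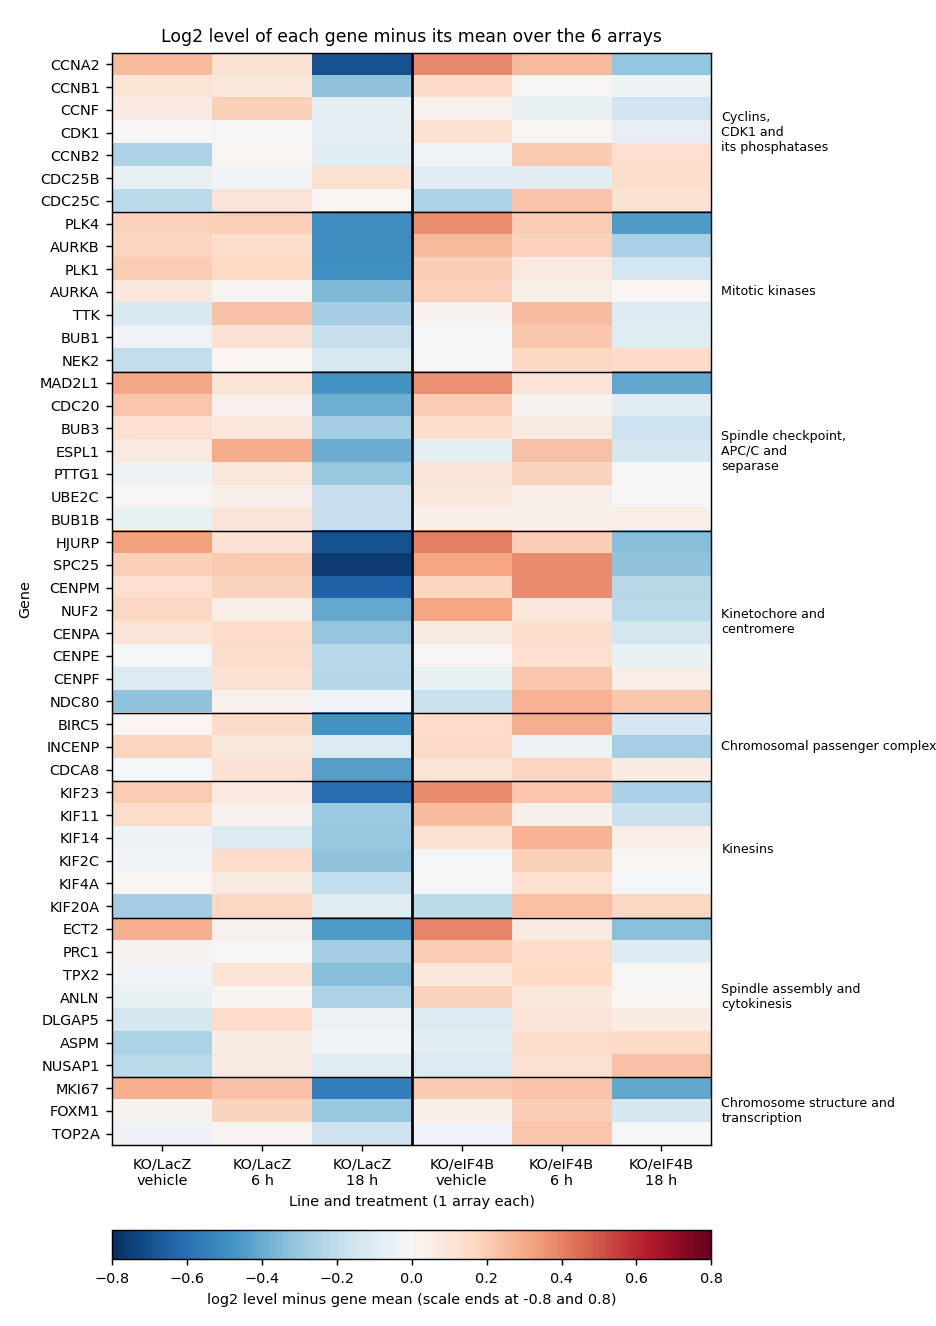
Log2 RMA level of each of the 48 genes minus that gene's mean over the 6 arrays, with genes in rows by role and 1 array a column. Blue cells gather in the 18 h columns of both lines, more deeply in the KO/LacZ line, and NDC80, KIF20A, CDC25C and ASPM are lowest under vehicle.

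Kinetochore genes held 2 of the 3 largest falls. HJURP, the chaperone that loads the centromeric histone CENPA, read 9.81, 9.60 and 8.79 in KO/LacZ cells and 9.89, 9.69 and 9.15 in KO/eIF4B cells under vehicle, 6 h and 18 h (log2 RMA intensity). It fell by 0.88 on the log2 scale (SE 0.090, limma adjusted p = 0.0012). Both 18 h arrays lay below all 4 others. SPC25, a subunit of the NDC80 complex that grips microtubules, read 8.40, 8.43 and 7.45 in KO/LacZ cells and 8.53, 8.59 and 7.89 in KO/eIF4B cells in the same order. It fell by 0.80 on the log2 scale (SE 0.095, limma adjusted p = 0.0020), with no fall at 6 h in either line. CENPM, a subunit of the inner kinetochore, read 9.00, 9.04 and 8.22 in KO/LacZ cells and 9.04, 9.24 and 8.64 in KO/eIF4B cells and fell by 0.59 on the log2 scale (SE 0.10, limma adjusted p = 0.0067). NUF2, another NDC80 complex subunit, read 9.90, 9.79 and 9.33 in KO/LacZ cells and 10.05, 9.82 and 9.52 in KO/eIF4B cells and fell by 0.55 on the log2 scale (SE 0.068, limma adjusted p = 0.0022). CENPA itself read 9.06, 9.11 and 8.64 in KO/LacZ cells and 9.03, 9.10 and 8.81 in KO/eIF4B cells and fell by 0.32 (limma adjusted p = 0.019). NDC80, the subunit after which the complex is named, went the other way. It read 8.78, 9.14 and 9.07 in KO/LacZ cells and 8.92, 9.38 and 9.32 in KO/eIF4B cells and rose by 0.34 on the log2 scale (SE 0.063, limma adjusted p = 0.0079), the largest increase among the 48. Its vehicle arrays were the lowest of their line. In this complex NUF2 and SPC25 thus fell and NDC80 rose, while the remaining subunit, SPC24, which is not among the 48, differed by -0.20 (limma adjusted p = 0.10). The kinetochore motor CENPE differed by -0.14 (limma adjusted p = 0.17) and the large kinetochore protein CENPF by -0.0041 (limma adjusted p = 0.97). In all, 5 of the 8 kinetochore and centromere genes fell (62.5%) and 1 rose (12.5%), where 23.3% and 28.1% of all genes did so.

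Cyclins and their kinase did not move as 1 group. CCNA2, the cyclin of S phase and G2, read 10.27, 10.14 and 9.32 in KO/LacZ cells and 10.40, 10.28 and 9.70 in KO/eIF4B cells under vehicle, 6 h and 18 h. It fell by 0.83 on the log2 scale (SE 0.085, limma adjusted p = 0.0013), by 0.95 in KO/LacZ cells and 0.70 in KO/eIF4B cells. CCNB1, the main mitotic cyclin, read 11.93, 11.91 and 11.49 in KO/LacZ cells and 11.97, 11.83 and 11.78 in KO/eIF4B cells and fell by 0.31 on the log2 scale (SE 0.099, limma adjusted p = 0.047). The change of CCNB1 was -0.43 in KO/LacZ cells and -0.20 in KO/eIF4B cells. CCNB2, the second B-type cyclin, read 10.86, 11.12 and 11.03 in KO/LacZ cells and 11.08, 11.32 and 11.25 in KO/eIF4B cells and differed by 0.17 (limma adjusted p = 0.064) at 18 h. CDK1, the partner of these cyclins, read 11.31, 11.31 and 11.23 in KO/LacZ cells and 11.43, 11.31 and 11.24 in KO/eIF4B cells, a difference of -0.13 (limma adjusted p = 0.15). All 6 CDK1 values lay within 0.19 log2 units of each other. Both phosphatases of the 48 that activate CDK1 were higher. CDC25C read 7.15, 7.47 and 7.38 in KO/LacZ cells and 7.12, 7.60 and 7.48 in KO/eIF4B cells and rose by 0.30 on the log2 scale (SE 0.069, limma adjusted p = 0.018). CDC25B read 10.79, 10.83 and 10.97 in KO/LacZ cells and 10.76, 10.76 and 10.99 in KO/eIF4B cells and rose by 0.21 on the log2 scale (SE 0.061, limma adjusted p = 0.038), and at 6 h it differed by 0.020. CCNF, the cyclin of a ubiquitin ligase, differed by -0.16 (limma adjusted p = 0.14). The other CCNF probe set was called lower than vehicle, at -0.47 (limma adjusted p = 0.0094, every probe set fitted).

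Of the 7 mitotic kinases, 4 fell (57.1%) and 0 rose at 18 h, where 23.3% and 28.1% of all genes did so. PLK4, which starts centriole duplication, read 8.37, 8.38 and 7.69 in KO/LacZ cells and 8.56, 8.39 and 7.73 in KO/eIF4B cells. It fell by 0.75 on the log2 scale (SE 0.071, limma adjusted p = 0.0010), and the 18 h arrays of the lines were within 0.04 of each other. AURKB, the kinase of the chromosomal passenger complex, read 10.07, 10.03 and 9.40 in KO/LacZ cells and 10.15, 10.08 and 9.63 in KO/eIF4B cells and fell by 0.59 on the log2 scale (SE 0.072, limma adjusted p = 0.0020). PLK1, the main Polo-like kinase, read 8.22, 8.18 and 7.52 in KO/LacZ cells and 8.21, 8.10 and 7.87 in KO/eIF4B cells and fell by 0.52 on the log2 scale (SE 0.12, limma adjusted p = 0.015). AURKA, which matures the spindle poles, read 11.30, 11.24 and 10.86 in KO/LacZ cells and 11.41, 11.27 and 11.23 in KO/eIF4B cells and fell by 0.31, just inside the threshold (limma adjusted p = 0.0495). In these 4 kinases the 18 h array was the lowest of its line. The checkpoint kinases TTK and BUB1 differed by -0.15 (limma adjusted p = 0.14) and -0.12 (limma adjusted p = 0.17). NEK2, which separates centrosomes, differed by 0.12 (limma adjusted p = 0.18), above vehicle in both lines.

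In the spindle checkpoint and the APC/C pathway, 3 of 7 genes fell (42.9%, against 23.3% of all genes). MAD2L1, the checkpoint protein that restrains CDC20, read 11.37, 11.17 and 10.59 in KO/LacZ cells and 11.43, 11.17 and 10.65 in KO/eIF4B cells under vehicle, 6 h and 18 h. It fell by 0.78 on the log2 scale (SE 0.060, limma adjusted p = 0.00062), by the same 0.78 in both lines, and had the lowest adjusted p of the 48. CDC20, the activator of APC/C in mitosis, read 11.82, 11.63 and 11.21 in KO/LacZ cells and 11.81, 11.63 and 11.51 in KO/eIF4B cells and fell by 0.45 on the log2 scale (SE 0.097, limma adjusted p = 0.013). BUB3, which carries BUB1 to kinetochores, read 12.12, 12.08 and 11.71 in KO/LacZ cells and 12.13, 12.06 and 11.82 in KO/eIF4B cells and fell by 0.36 on the log2 scale (SE 0.065, limma adjusted p = 0.0076). The other members of the group were all below vehicle on average without passing. Separase, ESPL1, differed by -0.27 (limma adjusted p = 0.094), the securin PTTG1 by -0.19 (limma adjusted p = 0.082), the ubiquitin-conjugating enzyme UBE2C by -0.14 (limma adjusted p = 0.14) and the checkpoint kinase-like protein BUB1B by -0.056 (limma adjusted p = 0.63). Within the chromosomal passenger complex, which corrects faulty attachments, survivin (BIRC5) read 10.55, 10.69 and 10.05 in KO/LacZ cells and 10.68, 10.82 and 10.40 in KO/eIF4B cells and fell by 0.39 on the log2 scale (SE 0.079, limma adjusted p = 0.011). The scaffold INCENP read 8.07, 7.99 and 7.79 in KO/LacZ cells and 8.05, 7.85 and 7.63 in KO/eIF4B cells and fell by 0.35 on the log2 scale (SE 0.066, limma adjusted p = 0.0090). The third of these genes, CDCA8 (borealin), read 10.01, 10.13 and 9.58 in KO/LacZ cells and 10.13, 10.19 and 10.08 in KO/eIF4B cells and differed by -0.24 (limma adjusted p = 0.16), with changes of -0.43 in KO/LacZ cells and -0.05 in KO/eIF4B cells.

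**Figure D2:**
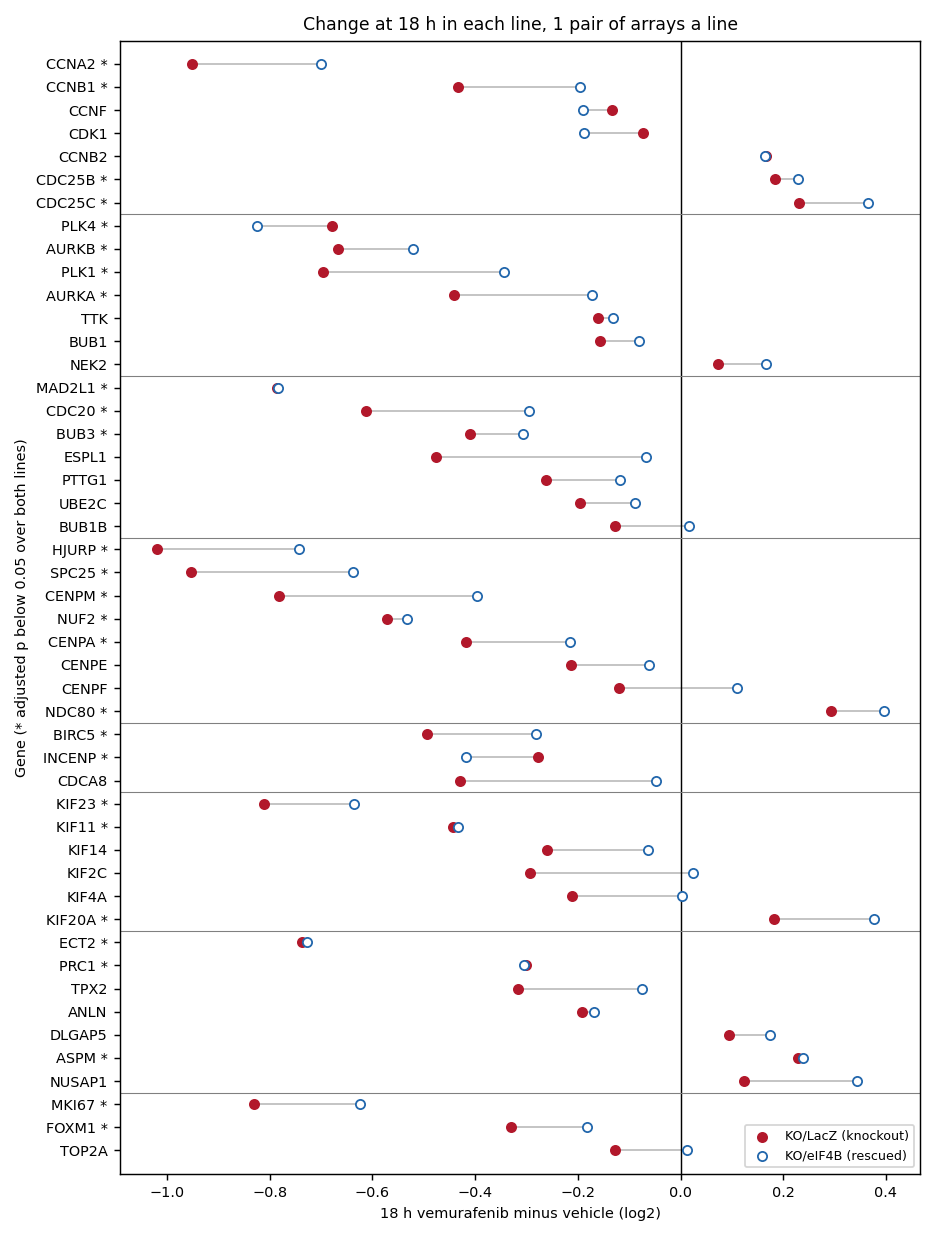
Change from vehicle to 18 h vemurafenib (log2) for each of the 48 genes, filled points for KO/LacZ cells and open points for KO/eIF4B cells, 1 pair of arrays each; an asterisk marks an adjusted p below 0.05 over both lines. HJURP has the lowest mean change at -0.88 and NDC80 the highest at 0.34.

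Kinesins and the genes of spindle assembly and cytokinesis were mixed. KIF23, a motor of the midzone where the cleavage furrow forms, read 9.51, 9.39 and 8.70 in KO/LacZ cells and 9.69, 9.52 and 9.05 in KO/eIF4B cells and fell by 0.72 on the log2 scale (SE 0.077, limma adjusted p = 0.0014). KIF11, which pushes spindle poles apart, read 10.21, 10.09 and 9.76 in KO/LacZ cells and 10.31, 10.10 and 9.88 in KO/eIF4B cells and fell by 0.44 on the log2 scale (SE 0.063, limma adjusted p = 0.0036), nearly alike in both lines. KIF20A, needed for late cytokinesis, rose: it read 10.21, 10.65 and 10.39 in KO/LacZ cells and 10.27, 10.73 and 10.65 in KO/eIF4B cells, a change of 0.28 (SE 0.075, limma adjusted p = 0.028). Its vehicle arrays lay below all 4 treated arrays. The other kinesins of the 48 in this group, KIF14, KIF2C and KIF4A, differed by -0.16, -0.13 and -0.10 and did not pass. ECT2, an exchange factor needed for cytokinesis, read 10.47, 10.22 and 9.73 in KO/LacZ cells and 10.57, 10.26 and 9.85 in KO/eIF4B cells. It fell by 0.73 on the log2 scale (SE 0.060, limma adjusted p = 0.00072), the only fall among the 48 that was also called at 6 h. PRC1, which bundles midzone microtubules, read 11.13, 11.11 and 10.83 in KO/LacZ cells and 11.31, 11.25 and 11.00 in KO/eIF4B cells and fell by 0.30 on the log2 scale (SE 0.058, limma adjusted p = 0.0093). ASPM, a spindle pole protein, read 10.54, 10.85 and 10.77 in KO/LacZ cells and 10.71, 10.93 and 10.94 in KO/eIF4B cells and rose by 0.23 on the log2 scale (SE 0.062, limma adjusted p = 0.027). NUSAP1 and DLGAP5, both microtubule-binding, were above vehicle by 0.23 and 0.13 without passing (limma adjusted p = 0.069 and 0.15). The spindle assembly factor TPX2 and the furrow scaffold ANLN were below vehicle by 0.20 and 0.18, again without passing (adjusted p = 0.13 and 0.099). The other ANLN probe set was called lower than vehicle, at -0.28 (limma adjusted p = 0.031, every probe set fitted).

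The proliferation marker MKI67, which coats mitotic chromosomes, read 10.02, 9.97 and 9.19 in KO/LacZ cells and 9.95, 9.96 and 9.32 in KO/eIF4B cells under vehicle, 6 h and 18 h. It fell by 0.73 on the log2 scale (SE 0.074, limma adjusted p = 0.0012), and at 6 h it differed by -0.016. FOXM1, the transcription factor of this gene group, read 9.59, 9.74 and 9.27 in KO/LacZ cells and 9.61, 9.76 and 9.43 in KO/eIF4B cells and fell by 0.26 on the log2 scale (SE 0.068, limma adjusted p = 0.028). Its fall was the smallest of the 22, and its 6 h arrays were above vehicle in both lines. TOP2A, the topoisomerase that untangles sister chromatids, read 11.40, 11.46 and 11.27 in KO/LacZ cells and 11.41, 11.66 and 11.43 in KO/eIF4B cells and differed by -0.058 (limma adjusted p = 0.54). The plot of single-array levels shows that genes such as MAD2L1 and MKI67 lie close together in the lines, while NDC80 and KIF20A have their lowest level under vehicle.

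**Figure D3:**
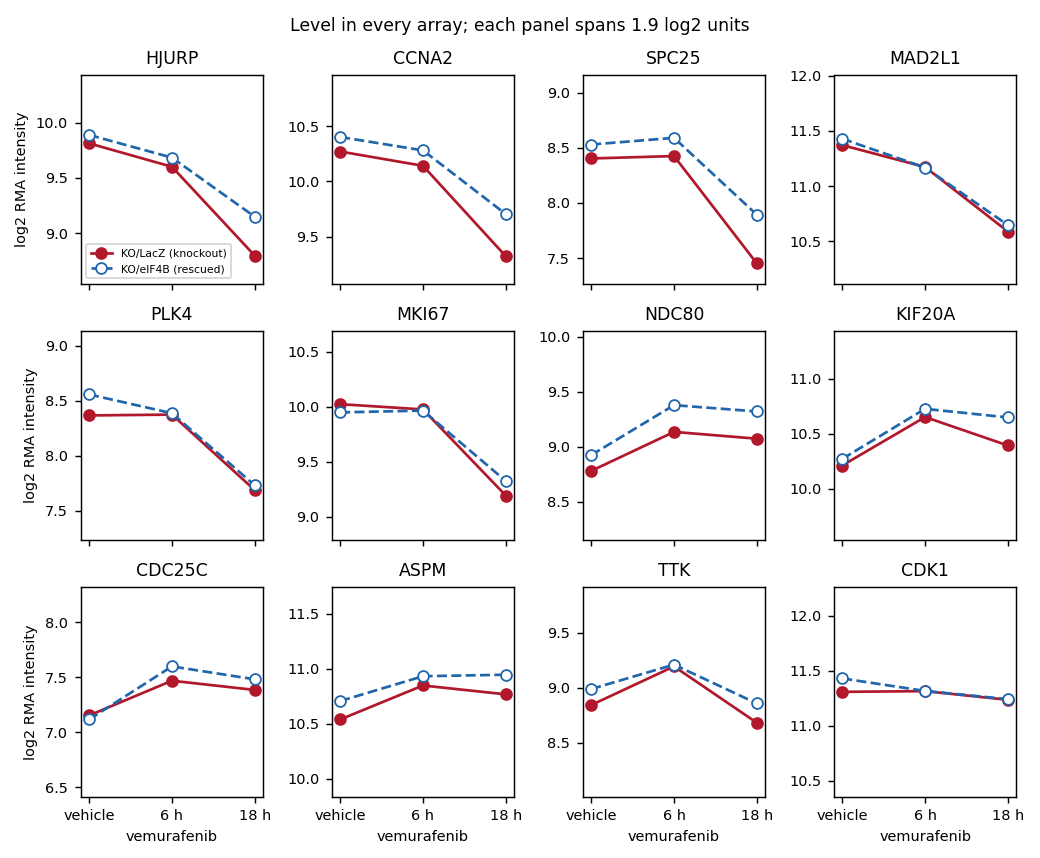
Log2 RMA intensity of 12 of the genes in every array, by treatment, with KO/LacZ as filled red points and KO/eIF4B as open blue points; each panel spans the same range of 1.9 log2 units. The first 6 panels show genes that fell at 18 h and the next 4 genes that rose at both times; TTK is highest at 6 h and CDK1 is nearly flat.

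Fewer of the genes moved at 6 h, and mostly upwards. Against vehicle 6 rose and 1 fell, and 41 passed in neither direction, with a median of 0.052, against 0.029 for all genes. Among all genes 16.2% passed, 7.34% higher and 8.82% lower, against 12.5% and 2.08% of the 48. Counted without a test, both 6 h arrays lay above both vehicle arrays in 23 of the 48 and below them in 11, where 31.8% and 24.2% of all genes did so. KIF20A rose the most, by 0.45 (SE 0.075, limma adjusted p = 0.021), followed by NDC80 with 0.40 and CDC25C with 0.40 (adjusted p = 0.018 and 0.023). TTK, ASPM and CCNB2 rose by 0.29, 0.27 and 0.25, each close to the threshold (adjusted p = 0.0499, 0.046 and 0.047). ECT2 fell by 0.28 on the log2 scale (SE 0.060, limma adjusted p = 0.039). Of the 6 that rose, KIF20A, NDC80, CDC25C and ASPM were also called higher at 18 h, while CCNB2 and TTK were not. These 7 calls needed every vehicle and 6 h array. With any 1 of them left out, each direction stayed but no call did, and fewer of all genes were called as well. With each array centred on the median of the genes tested, 3 were called higher and 0 lower, against 8.14% and 8.86% of all genes.

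Between 6 h and 18 h every called change was downward. In the comparison of 18 h with 6 h, for which the vehicle arrays enter only the line term and the error, 23 of 48 were lower and 0 higher, against a background of 34.0% called, 14.9% lower and 19.0% higher, and 47 of 48 were below 0. Both 18 h arrays lay below both 6 h arrays in 39 of the 48 and above them in 1, where 30.5% and 32.4% of all genes did so. The count of 0 higher came from limma; 1 gene was called higher with a mean-variance trend, and 33 of the 48 (68.8%) had an unadjusted p under 0.05 in either direction, against 46% of all genes. SPC25 changed by -0.84 (SE 0.095, limma adjusted p = 0.0048), MKI67 by -0.71, CENPM by -0.71, CCNA2 by -0.70 and PLK4 and HJURP by -0.67 each. FOXM1 was lower by 0.41 (adjusted p = 0.011). TTK, BUB1, PTTG1, ESPL1 and CENPE were called lower than at 6 h but were not called lower than under vehicle. Each was nonetheless below vehicle at 18 h in both lines. The other ESPL1 probe set was called lower than vehicle, at -0.31 (limma adjusted p = 0.022, every probe set fitted). TTK was highest at 6 h, reading 8.84, 9.19 and 8.68 in KO/LacZ cells and 8.99, 9.21 and 8.86 in KO/eIF4B cells, with a difference of -0.43 between 18 h and 6 h (limma adjusted p = 0.0098). ESPL1 read 9.67, 9.89 and 9.20 in KO/LacZ cells and 9.52, 9.83 and 9.46 in KO/eIF4B cells and its difference was -0.53 (limma adjusted p = 0.020). BUB1 read 9.21, 9.36 and 9.05 in KO/LacZ cells and 9.22, 9.45 and 9.14 in KO/eIF4B cells, PTTG1 11.94, 12.08 and 11.68 in KO/LacZ cells and 12.09, 12.17 and 11.97 in KO/eIF4B cells, and CENPE 9.25, 9.40 and 9.03 in KO/LacZ cells and 9.27, 9.39 and 9.21 in KO/eIF4B cells. In all 5 genes both 18 h arrays lay below the 6 h array of the same line. CDC25B alone lay above its 6 h level, by 0.19 (adjusted p = 0.069). With any 1 array left out, all 23 genes called lower stayed below 0. Most such fits called fewer of the 48, and each called fewer of all genes.

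The lines were then compared with each other, which sets knockout cells given LacZ against knockout cells given eIF4B. None of the arrays is from cells without the knockout. The presence of eIF4B, its level after transduction and other differences between the lines therefore cannot be told apart. Over the 3 treatments, 45 of the 48 genes had a lower average in KO/LacZ than in KO/eIF4B cells, with a median difference of -0.12, while 6545 of all 13506 genes were lower and the median over them was 0.004. No gene of the 48 passed the threshold in limma, and 13 (27.1%) had an unadjusted p under 0.05, near the 23% of all genes. With a mean-variance trend 8 of the 48 (16.7%) passed, all lower in KO/LacZ cells, where 8.66% of all genes passed in either direction. Of all genes 2.50% passed in limma, 1.06% lower and 1.44% higher in KO/LacZ cells. KIF14, a motor of cytokinesis, had the most negative difference, at -0.30 (SE 0.064, limma adjusted p = 0.084). It read 9.12, 9.05 and 8.86 in KO/LacZ cells and 9.27, 9.43 and 9.21 in KO/eIF4B cells under vehicle, 6 h and 18 h, and it was the 1 gene of the 48 whose 3 KO/LacZ arrays all lay below the 3 KO/eIF4B arrays, where 4.09% of all genes did so. None had its KO/LacZ arrays all above, where 4.31% of all genes did. CCNB2 differed by -0.21 (adjusted p = 0.092) and CCNF, at 0.12 (adjusted p = 0.31), was the most positive.

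By treatment, the median difference between the lines was widest at 18 h. Under vehicle 38 of the 48 genes were lower in KO/LacZ cells (median -0.082), at 6 h 34 (median -0.045) and at 18 h 46 (median -0.23), where 46.9%, 49.5% and 47.7% of all genes were lower. INCENP and CCNF were the 2 that were higher in KO/LacZ cells at 18 h. Accordingly the change from vehicle to 18 h was more negative in KO/LacZ than in KO/eIF4B cells for 42 of the 48. The same held for 6684 of all 13506 genes, and the median difference was -0.15 against 0.002 for all genes. At 6 h the change was more negative for 18 of the 48 and 7529 of all genes, with medians of 0.039 and -0.018. At 18 h ESPL1 differed the most between the lines in its change, by -0.41 (-0.48 in KO/LacZ cells and -0.07 in KO/eIF4B cells). CENPM followed with -0.39, CDCA8 with -0.38 and PLK1 with -0.35. None of the 48 reached a difference of 0.5 in size at either time, which 2.09% of all genes did at 6 h and 3.71% at 18 h. At a single time this difference rests on 4 arrays and has no error. Fitting 1 difference in response for both times together, which leaves a single residual degree of freedom, called 0 of the 48 and 0 of all 13506 genes in limma, with an unadjusted p under 0.05 for 0 and 302 of them, and also called 0 of the 48 with a mean-variance trend or robust variances. All 48 share the same KO/LacZ 18 h array, so their common direction is not 48 separate observations. Centring the arrays on their medians over the genes tested makes each 18 h difference more negative by 0.035 and each 6 h difference more positive by 0.070.

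**Figure D4:**
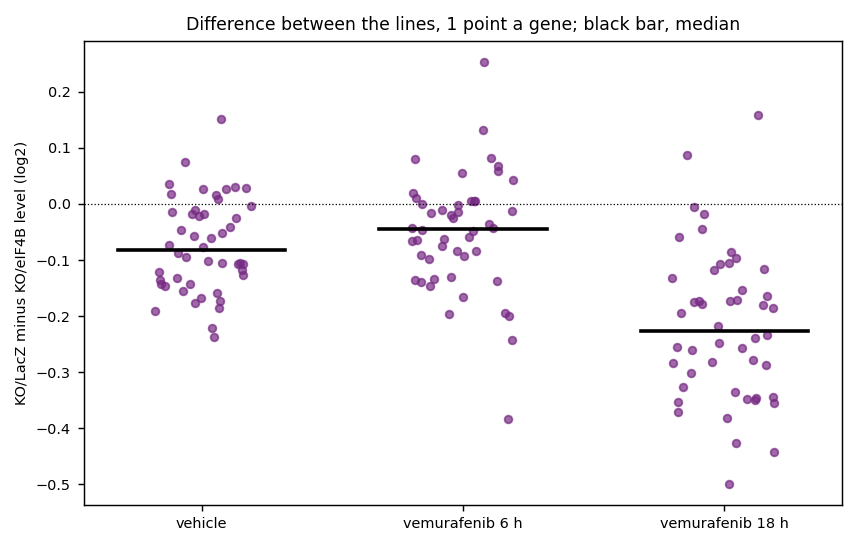
KO/LacZ minus KO/eIF4B log2 level of each of the 48 genes under vehicle, 6 h and 18 h of vemurafenib, 1 point a gene, with the median as a bar. At 18 h 46 of the 48 points are below 0, with a median of -0.23.

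Other genes of the same processes are given for comparison, in lists made by role with earlier results of these data known. Of 40 other genes of G2 and mitosis tested 23 fell at 18 h and 1 rose, with a median of -0.29. Among them were CKAP2L, a spindle protein (-1.10), TRIP13, the ATPase that recycles MAD2 (-1.06), NDE1, a partner of dynein (-0.91), and NCAPH, a condensin subunit (-0.86), and PSRC1, a microtubule-binding protein, rose by 0.26. Of 20 other kinetochore subunits 11 fell, CENPQ by 0.94, CENPK and CENPO by 0.78 each, and NSL1 rose by 0.24. Of 16 subunits of condensin and cohesin or their regulators 9 fell, CDCA5 (sororin, which keeps sister chromatids joined) by 1.05, and NCAPD2 rose by 0.28. In these 3 lists, as among the 48, falls outnumbered increases. The falls made up 57.5%, 55% and 56.25% of the genes tested and the increases 2.5%, 5% and 6.25%. Among all genes 23.3% fell and 28.1% rose, and no test was made of these shares.

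In the APC/C list 5 of 18 genes were lower (27.8%, near the 23.3% of all genes) and 2 were higher (11.1%, against 28.1%), with a median of -0.089. UBE2S, which extends ubiquitin chains for APC/C, fell by 0.89, its inhibitor FBXO5 by 0.72 and the subunit ANAPC10 by 0.58, and ANAPC16 rose by 0.74. Of 13 kinases and phosphatases of mitotic entry 7 fell (53.8%) and 0 rose in limma. An unadjusted p under 0.05 was found for 9 of the 13, and for 57.6% of all genes. CDK2 fell by 1.31, MASTL (Greatwall, which blocks the phosphatase opposing CDK1) by 1.27, the CDK1 inhibitor PKMYT1 by 0.94 and the checkpoint kinase CHEK1 by 0.79.

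Several regulators of the transcription of these genes had larger changes than FOXM1. MYBL2, which is B-MYB, changed by -1.14 at 18 h (limma adjusted p = 0.0010), E2F7 by -1.28, E2F1 by -1.15 and E2F8 by -1.11. The MuvB subunit LIN37 rose by 0.44, RBL2, the p130 pocket protein of DREAM in resting cells, rose by 0.84 and E2F5 by 0.63. In that list of 22 genes 13 fell (59.1%) and 4 rose (18.2%), with a median of -0.51, where 23.3% and 28.1% of all genes did so. Genes of DNA replication and S phase, the step before G2, had a lower median: 40 of 44 were lower and 1, RFC5, was higher, with a median of -0.79 against -0.22 for the 48 genes. The phosphatase CDC25A changed by -2.08, the cyclin CCNE2 by -2.05, the replication factor MCM10 by -1.96 and the checkpoint mediator CLSPN by -1.62, each below the lowest of the 48. At 6 h 8 of these 44 had already fallen (18.2%) and 0 had risen in limma, where 8.82% and 7.34% of all genes did so. An unadjusted p under 0.05 was found for 13 of the 44, and for 32.7% of all genes. Among the 48 mitotic genes 1 fell (2.08%) and 6 rose (12.5%) at 6 h. No test was made of the difference between the lists.

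**Figure D5:**
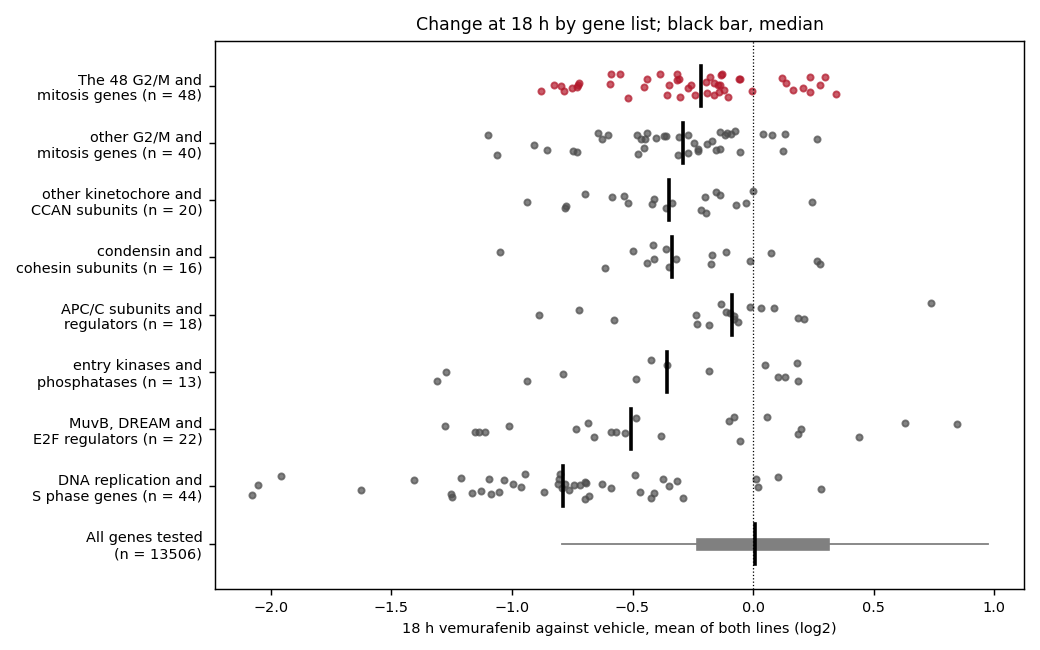
Change at 18 h of vemurafenib against vehicle (log2, mean of both lines) of each gene, by list, with the median as a black bar; for all 13506 genes tested the thick bar spans the quartiles and the thin line the 5th to 95th percentiles. The median of the 48 genes is -0.22 and that of the DNA replication genes -0.79.

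Several features of the arrays bear on these values. EIF4B, the targeted gene, read 8.40, 8.53 and 8.53 in KO/LacZ cells and 10.07, 10.14 and 10.28 in KO/eIF4B cells on the log2 scale, which matches the labels of the lines. All 12 genes of an ERK output list fell at 6 h, with a median of -2.49. Of 8 melanoma markers 7 had a probe set and 6 were tested. At 18 h 2 of the 6 rose (33.3%, against 28.1% of all genes) and 0 fell, with changes from -0.12 to 1.63. The summed signal of the list was 2696 to 2970 at 18 h, 1958 to 2030 at 6 h and 2192 to 2333 under vehicle. Among them SOX10 read between 9.86 and 10.57 and the pigment cell factor MITF between 8.10 and 9.97, while MLANA, at 4.76 to 4.99, was below the filter. EPCAM and CDH1 (epithelial) and PTPRC (blood) stayed between 2.32 and 3.24. Of 5 epithelial markers 2 were tested and both were called at 18 h, KRT18 at -0.78 and KRT8 at 0.39, and the summed signal of the list was 3690 to 4415 at 18 h, 4684 to 5916 at 6 h and 5849 to 7265 under vehicle. Of 5 blood markers 2 were tested and LYZ fell by 0.86, with a sum of 144.6 to 152.6 at 18 h, 180.1 to 214.5 at 6 h and 197.6 to 227.2 under vehicle. The summed signal of 5 fibroblast markers, 3 of them tested, was 1002 to 1290 at 18 h, 573 to 652.3 at 6 h and 414.7 to 514.6 under vehicle, with LUM and DCN higher at 18 h. The part of these marker changes in the mitotic genes was not tested. Of 25 genes of the 48 with more than 1 probe set above the filter, 22 had every probe set on the same side of 0 at 18 h, the exceptions being CCNB2, NEK2 and CENPF. BUB3, CENPA, FOXM1 and PTTG1 were read from probe sets of the x_at kind, which can bind other transcripts.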

How the data were processed

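RNA of 6 A375 samples was measured on Affymetrix arrays, 1 array for each of 2 lines under 3 treatments. The authors deposited linear intensity values (3.01 to 19000) from RMA in affy, per the submitters' processing notes; no version or build is given in the sources used here. RMA equalises the distribution of all arrays, so a shift common to all genes is removed. Array medians over all probe sets were 5.20 to 5.22 log2 units, and those over the genes tested, used for centring, 7.67 to 7.83. The number of arrays limits the precision. For this work log2 was taken. Of 54675 probe sets, 62 were controls, 41091 had 1 gene symbol, 1801 several and 11721 none. Each gene was read from its single-symbol probe set with the highest mean over 6 arrays, and the 13506 genes whose mean reached 5 log2 units were tested. limma 3.58.1 in R 4.3.3 was fitted on all 6 arrays with terms for line and treatment (2 residual degrees of freedom plus 3.19 borrowed across genes), with Benjamini-Hochberg adjustment over all genes and a threshold of 0.05. The other line thus serves as the second array of a treatment. The scripts were tested on simulated data. The 48 genes and all comparison lists were chosen with earlier results of these data known. Array values are given for genes past the threshold in any contrast and for genes that represent a role, and from each comparison list up to 4 genes in each direction, by size of change. Alternatives covered the filter, the probe set rule, centring, the variance model and each array left out. Promoters were read from RefSeq (GRCh38.p14).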

Additional observations from a re-analysis of the deposited data

How the results depend on the processing

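Of 798 pairs of a called gene and an alternative setting, 572 kept direction and call, 226 kept direction without the call and 0 reversed. At 18 h 12 of the 27 calls held in every setting but the test against a change of 0.5, namely AURKB, CCNA2, CENPM, ECT2, HJURP, KIF11, KIF23, MAD2L1, MKI67, NUF2, PLK4 and SPC25; at 6 h 0 of 7 and for 18 h against 6 h 6 of 23 did. The fit of every probe set on its own was not among the settings of these pairs and held calls. Counts of genes moved by over 1.5 times as follows. At 6 h, lower calls were 1 in the reported fit, 0 with no filter, with centred arrays, with a one-factor model or when testing beyond 0.5 log2 units, and 2 with a mean of at least 6, with the mean of all probe sets, with every probe set on its own or with a mean-variance trend. Higher calls at 6 h were 6 in the reported fit, 3 with no filter or centred arrays, 11 with the trend, 1 with the one-factor model and 0 beyond 0.5. At 18 h, higher calls were 5 in the reported fit and 3 with no filter or with the mean of all probe sets. They were 1 with centred arrays or the one-factor model and 0 beyond 0.5. Lower calls beyond 0.5 were 4 (CCNA2, ECT2, HJURP and MAD2L1) and not 22. That test called 1558 of all 13506 genes in either direction, where the reported fit called 6947. Over all genes, 6749 were called with no filter and 6444 with the mean of all probe sets. With centred arrays 7131 were called, and with the one-factor model 5485. For 18 h against 6 h, 1 gene was higher with a mean of at least 6 or with the trend, and 0 were lower beyond 0.5. Of all genes 4778, 5298 and 240 were called in these fits in either direction, against 4587 in the reported fit. Between the lines 8 were lower in KO/LacZ cells with the trend, which called 1169 of all genes in either direction, against 337 in the reported fit. Leaving out 1 array, calls ranged from 0 to 1 lower and 0 to 4 higher at 6 h, 13 to 27 lower and 0 to 4 higher at 18 h, and 6 to 28 lower for 18 h against 6 h. With an array left out 1 residual degree of freedom is left, and a lone array of a treatment is assumed to vary like the others. In windows from 100 bases before the start, CCAAT was found in 59.62% and not 75% of the genes' windows, and in 21.3% and not 34.6% of all windows. The cause of these shifts was not tested. The labels give no replicate numbers; the line acts as the block for the treatments in every fit but the one-factor model, which called 17 lower at 18 h and 18 lower for 18 h against 6 h.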
